A study of Mus musculus with 18 samples.

Results

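The genes described here encode the subunits of the proteasome and its caps, taken as every gene whose symbol starts with Psma, Psmb, Psmc, Psmd or Psme followed by a digit. The rule found 44 of the 18193 genes that the arrays named by a single symbol, read by 91 probe sets, and each gene was followed through its probe set with the highest mean over all 18 arrays. The rule names no measured difference between groups. Of the 44 genes, 39 had a signal high enough to be tested, a mean of at least 7.58 on the log2 scale, the 40th percentile of the probe sets. The 5 below that limit were Psma8, Psmb8, Psmb9, Psmb11 and Psmc3ip. Psmc3ip, a meiotic recombination factor, and Psme3ip1, an interaction partner of Psme3, match the letters of the rule but are not subunits of the particle.

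The proteasome degrades proteins that carry a ubiquitin chain. Its barrel, the 20S core, is a stack of outer alpha rings, which form the gate, and inner beta rings, which hold the proteolytic sites. The 19S regulatory particle sits on the barrel, where its base of ATPases unfolds substrates and its lid removes ubiquitin, and the Psme proteins are alternative caps. In neurons the particle is known for its part in synaptic protein turnover and in the clearance of misfolded proteins. Cells can raise most subunit genes together through the factor Nfe2l1, and interferon exchanges the catalytic subunits Psmb6, Psmb7 and Psmb5 for Psmb9, Psmb10 and Psmb8.

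Whole brains came from mice aged 8 weeks in 3 groups on a C57BL/6 background, labelled ERalphaKO (estrogen receptor alpha, gene Esr1), ERbetaKO (estrogen receptor beta, gene Esr2) and wild type. Each genotype had 3 female and 3 male samples, no treatment is named, and the knockout alleles are not given in the sources used here. The labels number the samples without saying whether each is its own animal, and the p-values here reflect only how these samples vary. Total RNA of each brain was hybridised to 1 Affymetrix mouse array, and signals are linear intensities that the authors had scaled to a common mean, so a probe set can be compared between arrays but not with another probe set.

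The targeted genes did not bear out their labels. The Esr2 probe set had a mean signal of 33.2 ± 22.6 in ERalphaKO-labelled, 271 ± 98.0 in ERbetaKO-labelled and 28.7 ± 11.4 in wild type brains (SD, n = 6 each), so it was highest in the line that should lack the gene. The brightest Esr1 probe set averaged 129 ± 21.6, 197 ± 24.6 and 143 ± 35.9 in the same order. Of the other Esr1 probe sets, 1 averaged 230, 97.5 and 141 and 1 averaged 65.0, 37.2 and 38.6, both highest in the line labelled ERalphaKO (differences from wild type of 0.54 and 0.33, unadjusted p = 0.010 and 0.0084). Where on each transcript these probe sets lie relative to a deleted part was not examined, and the lines are called by their labels. Brain tissue also varied between arrays. The Purkinje cell gene Pcp2 ranged from 117 to 10790 in signal and was over 500 on 4 ERalphaKO-labelled, 3 ERbetaKO-labelled and 4 wild type arrays. The ratio of the 3′ to the 5′ Actb control, a measure of RNA integrity, was 1.15 to 1.37 on ERalphaKO-labelled, 1.34 to 1.84 on ERbetaKO-labelled and 1.17 to 1.23 on wild type arrays. The ERbetaKO-labelled range lay wholly above wild type and met the ERalphaKO-labelled range only from 1.34 to 1.37. A fit with this ratio as a covariate therefore cannot fully separate RNA integrity from genotype in those comparisons. All 5 neuron markers passed the limit for testing, with summed signals of 36642 to 47982 in ERalphaKO-labelled, 44920 to 62223 in ERbetaKO-labelled and 49133 to 62955 in wild type brains. The ERalphaKO-labelled sums lay wholly below the wild type sums. The 6 granule cell and 3 Purkinje cell markers of the cerebellum had median log2 differences of 0.10 and 0.14 in ERalphaKO-labelled and -1.03 and -0.94 in ERbetaKO-labelled against wild type brains, with no gene past the test. Of 6 astrocyte, 5 oligodendrocyte, 8 microglial and 5 endothelial markers, 0, 0, 2 and 1 fell in ERalphaKO-labelled brains, 1, 0, 1 and 1 fell in ERbetaKO-labelled brains, and none rose. The summed endothelial signal lay wholly below wild type in both lines, at 3539 to 3920 in ERalphaKO-labelled, 3641 to 3990 in ERbetaKO-labelled and 4214 to 4705 in wild type brains. None of 5 pituitary markers and 1 blood marker passed against wild type, though the summed pituitary signal ran from 628 to 43846 on ERalphaKO-labelled, 941 to 34292 on ERbetaKO-labelled and 735 to 35755 on wild type arrays. In a homogenised brain, fewer cells of a type and less RNA per cell cannot be told apart.

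In ERalphaKO-labelled against wild type brains, 1 proteasome gene rose and 2 fell, all of them parts of the 20S core. The alpha ring gene Psma1 rose by 0.31 on the log2 scale, while Psmb7 and Psmb5, which encode catalytic subunits, fell by 0.37 and 0.22. These 3 calls of 39 tested are 7.69% of the members, against 6.7% of the 13072 genes tested (limma, adjusted p under 0.05, 12 residual degrees of freedom). By direction, 2.56% of members rose against 3.07% of all genes, and 5.13% fell against 3.63%. The same 3 members had 6 values that did not overlap with the 6 of wild type, 7.69% of members against 4.65% of all genes. At an unadjusted limma p under 0.05 there were 5 higher and 4 lower members, 23.1% against 23.3% of all genes.

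In ERbetaKO-labelled against wild type brains no member rose and only Psmb7 fell, by 0.27 on the log2 scale. That is 2.56% of the members, against 7.5% of all genes (2.91% rose and 4.58% fell). No member had 6 values wholly apart from wild type, against 4.06% of all genes. At an unadjusted limma p under 0.05, 1 member was higher and 6 were lower, 17.9% of the members against 25.4% of all genes (12.4% higher and 13.0% lower). Between the knockout lines, Psma4, Psma1 and the cap gene Psme3 were higher in ERalphaKO-labelled than in ERbetaKO-labelled brains and none was lower, 7.69% of members against 15.4% of all genes (6.27% higher and 9.11% lower). The 3 comparisons share arrays in pairs and are not independent of each other.

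The proteasome genes differed little in size. The median log2 difference over the 39 members was 0.028 in ERalphaKO-labelled and -0.070 in ERbetaKO-labelled against wild type brains, where the median over all genes tested was -0.029 and 0.0053. Centring each array on its median moved the all-gene median in ERbetaKO-labelled brains to -0.097 and that of the members to -0.17, with 3 of the 39 members called lower in place of 1. Over all 13072 genes tested, 1491 were then called lower in place of 599. Without its sign the median was 0.079 and 0.092, against 0.13 and 0.13 over all genes. In the reported fit of the brightest probe sets, no member differed by more than 1.5-fold in any comparison of genotypes. Some other readings went past that bound. Between the knockout lines, the dimmest Psma1 probe set differed by 0.61, and Psme1 reached 0.65 once the Actb ratio was added to the fit. The 95% interval lay wholly inside a 1.5-fold change for 37 members in ERalphaKO-labelled and 38 in ERbetaKO-labelled against wild type brains, where 85.6% and 83.1% of all genes had such an interval. The members were measured with a median standard error of 0.076 on the log2 scale, against 0.11 for all genes. All 39 also passed a filter at the 60th percentile of signal, which kept 9906 of the 13072 genes. The members were thus among the brighter genes. Whether genes of like signal have differences and errors of this size was not tested.

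**Figure D1:**
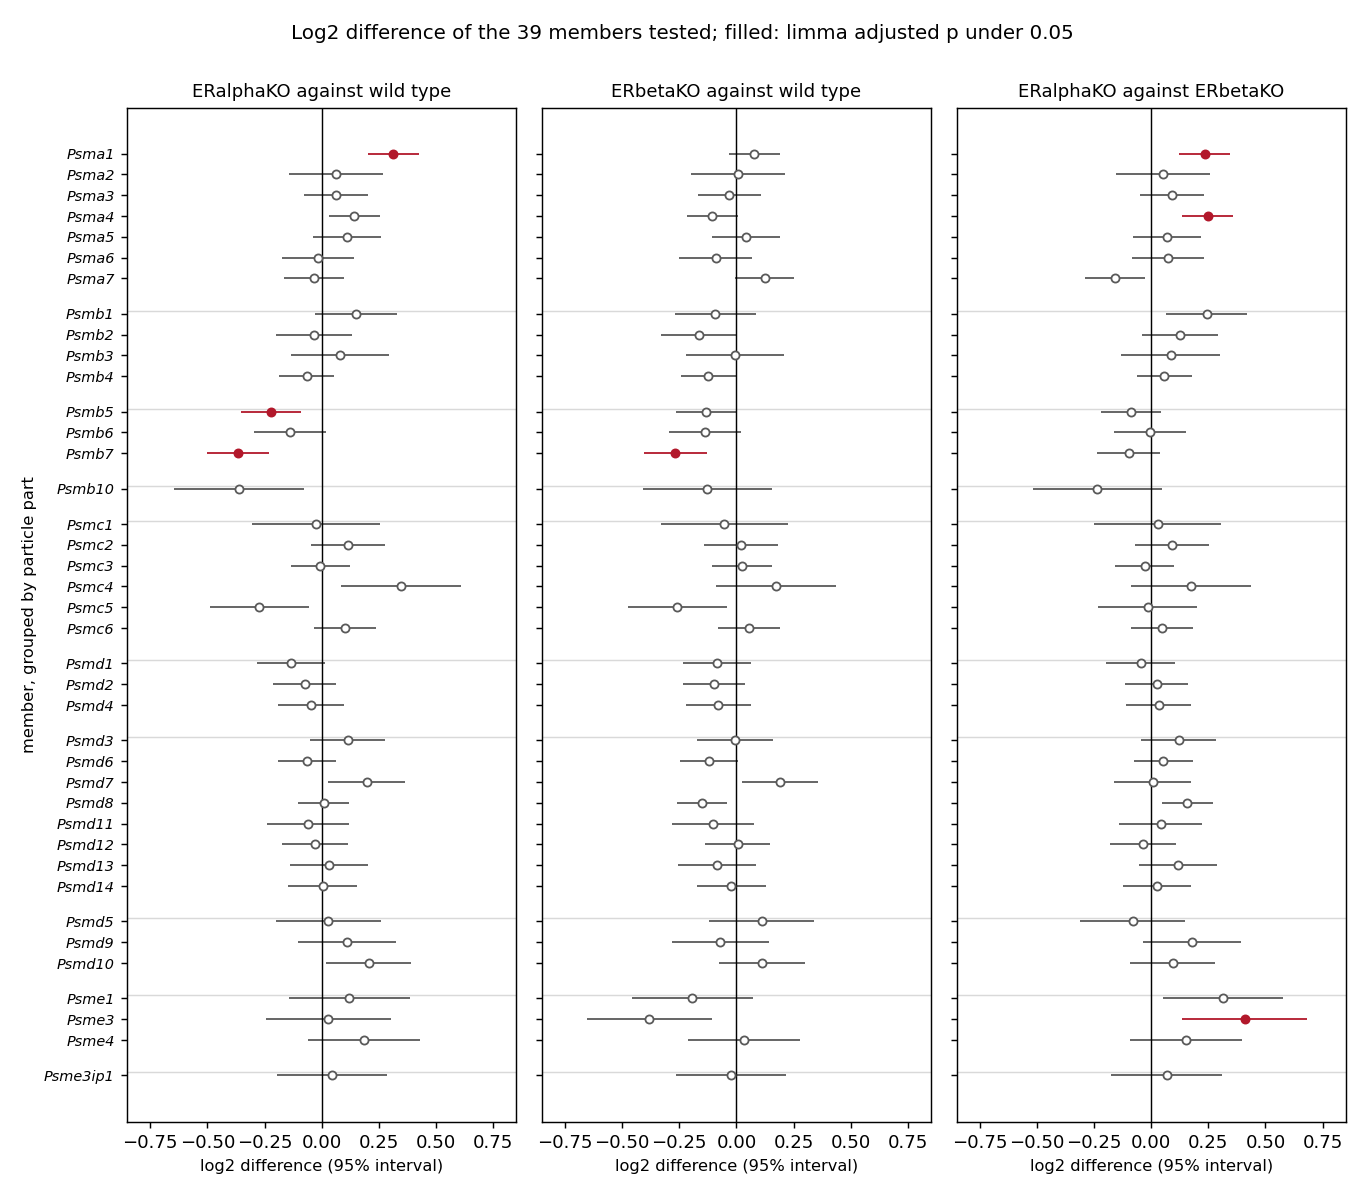
Log2 difference (horizontal axis) of each of the 39 members tested, grouped down the page by particle part, in ERalphaKO against wild type (left), ERbetaKO against wild type (middle) and ERalphaKO against ERbetaKO (right), with 95% intervals as bars. Filled red points passed at an adjusted p under 0.05: Psma1, Psmb5 and Psmb7 on the left, Psmb7 in the middle, and Psma1, Psma4 and Psme3 on the right.

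The alpha ring had 7 tested members, of which 1 rose in ERalphaKO-labelled brains, with a median log2 difference of 0.062 over the ring, and none passed in ERbetaKO-labelled brains, with a median of 0.0082. Psma1 had signals of 2478, 2412 and 2565 in ERalphaKO-labelled females and 2572, 2566 and 2400 in ERalphaKO-labelled males. In ERbetaKO-labelled brains the signals were 2251, 2225 and 2232 in females and 2212, 1870 and 1933 in males, and in wild type brains 1965, 1975 and 2134 in females and 2008, 1930 and 1994 in males. Every ERalphaKO-labelled value lay above every value of the other genotypes, while ERbetaKO-labelled and wild type values overlapped. The mean signal was 2499 ± 80.0 in ERalphaKO-labelled, 2120 ± 171 in ERbetaKO-labelled and 2001 ± 70.4 in wild type brains (SD, n = 6 each). Psma1 rose by 0.31 ± 0.053 (SE) against wild type (limma, adjusted p = 0.0036), a 1.24-fold change, with a difference of 0.29 in females and 0.34 in males. It was also 0.23 ± 0.053 higher in ERalphaKO-labelled than in ERbetaKO-labelled brains (adjusted p = 0.010), a call lost with the Actb ratio as a covariate (adjusted p = 0.090). In ERbetaKO-labelled against wild type brains its difference was 0.078 ± 0.053 (adjusted p = 0.38).

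Psma1 was read by 4 probe sets, and all had a positive difference in ERalphaKO-labelled against wild type brains, of 0.31, 0.26, 0.36 and 0.51 from the brightest to the dimmest in wild type. Their unadjusted limma p-values in the fit over all probe sets were 1.8e-05, 0.0088, 0.034 and 0.00062. Their mean signals in wild type brains were 2001, 255, 86.2 and 58.6. The last 2 were near the 63.6 added to every signal before log2, so their differences carry less weight. Beyond the brightest probe set, only the second read the rise at a signal well above that. The 250 bases before the RefSeq start of Psma1 are shown because it is the member that rose. They lie on the minus strand of GRCm38.p6 at chr7:114276117-114276366, with the CCAAT box, the site of the factor NF-Y, in capitals in either orientation.

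Psma1: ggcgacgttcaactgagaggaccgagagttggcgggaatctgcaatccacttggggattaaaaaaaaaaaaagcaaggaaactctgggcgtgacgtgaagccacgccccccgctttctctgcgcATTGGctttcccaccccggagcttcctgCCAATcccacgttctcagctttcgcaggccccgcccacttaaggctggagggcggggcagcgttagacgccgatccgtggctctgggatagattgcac

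Psma4, another alpha ring subunit, had signals of 3382, 3016 and 2965 in ERalphaKO-labelled females and 3523, 3567 and 3580 in ERalphaKO-labelled males. The ERbetaKO-labelled signals were 2774, 2733 and 2974 in females and 2666, 2680 and 2956 in males, and the wild type signals 2955, 3062 and 2876 in females and 2933, 3175 and 3076 in males. Only the third ERalphaKO-labelled female, at 2965, fell within the ERbetaKO-labelled range. Psma4 was 0.25 ± 0.053 (SE) higher in ERalphaKO-labelled than in ERbetaKO-labelled brains (limma, adjusted p = 0.0083), which was lost in the same way (adjusted p = 0.094) and on the arrays with Pcp2 over 500 (adjusted p = 0.087). Against wild type its differences were 0.14 ± 0.053 in ERalphaKO-labelled brains (adjusted p = 0.11) and -0.11 in ERbetaKO-labelled brains. The other 5 alpha ring genes, Psma2, Psma3, Psma5, Psma6 and Psma7, had differences between -0.033 and 0.11 in ERalphaKO-labelled brains and between -0.091 and 0.12 in ERbetaKO-labelled brains. Psma6 was read differently by its second probe set, with means of 2857 in ERalphaKO-labelled, 2554 in ERbetaKO-labelled and 2488 in wild type brains. That probe set was 0.20 ± 0.049 (SE) higher in ERalphaKO-labelled than in wild type brains (unadjusted p = 0.00096), with all 6 values above wild type, where the one used here gave -0.017. Psma8, the testis-specific alternative to Psma7, stayed below the limit for testing, with signals of 8.68 to 67.1 in ERalphaKO-labelled, 9.25 to 79.8 in ERbetaKO-labelled and 8.47 to 96.1 in wild type brains.

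**Figure D2:**
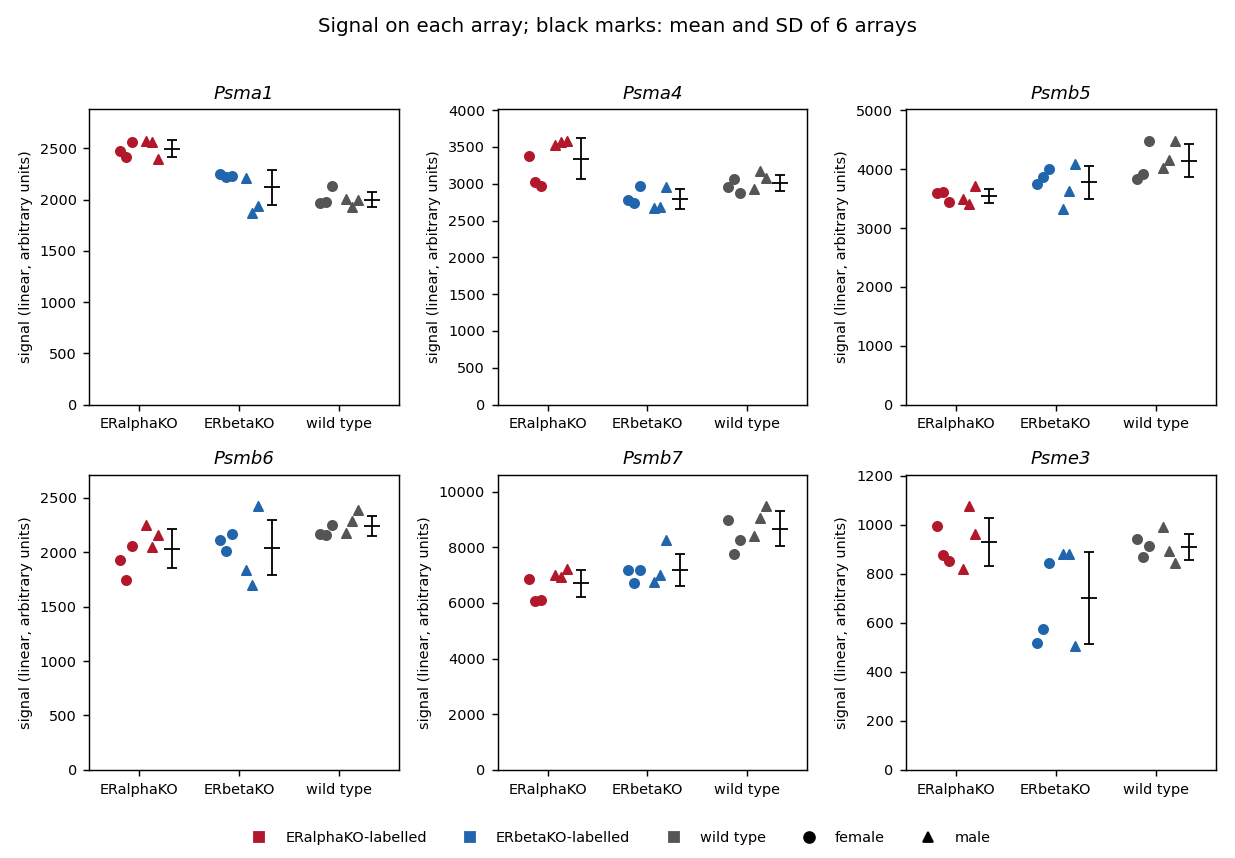
Signal (vertical axis, linear, from 0) on each of the 18 arrays for Psma1, Psma4, Psmb5, Psmb6, Psmb7 and Psme3, by genotype, with circles for females, triangles for males and black marks for the mean and SD of 6 arrays. Psma1 was higher on all ERalphaKO arrays than on any other, Psmb7 and Psmb5 were lower on all ERalphaKO arrays than on any wild type array, and Psme3 was near 500 to 575 on 3 ERbetaKO arrays and over 840 on the other 3.

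Among the beta ring subunits with proteolytic activity, 2 fell in ERalphaKO-labelled brains and 1 of them also in ERbetaKO-labelled brains. Psmb7, which carries the trypsin-like site, had signals of 6841, 6085 and 6110 in ERalphaKO-labelled females and 7014, 6947 and 7224 in ERalphaKO-labelled males. The signals were 7181, 6707 and 7177 in ERbetaKO-labelled females and 6765, 7010 and 8258 in ERbetaKO-labelled males, and 8982, 7744 and 8266 in wild type females and 8409, 9065 and 9465 in wild type males. All ERalphaKO-labelled values lay below all wild type values, and 5 of 6 ERbetaKO-labelled values did. Psmb7 fell by 0.37 ± 0.065 (SE) on the log2 scale in ERalphaKO-labelled brains (limma, adjusted p = 0.0049) and by 0.27 ± 0.065 in ERbetaKO-labelled brains (adjusted p = 0.022), to 0.776 and 0.831 of the wild type level. In ERalphaKO-labelled brains its difference was -0.39 in females and -0.34 in males, and in ERbetaKO-labelled brains -0.24 in females and -0.29 in males. The call in ERbetaKO-labelled brains was lost without the first wild type female, without the first or the second ERbetaKO-labelled male (adjusted p at most 0.059), when the Actb ratio was a covariate (adjusted p = 0.40), and in a fit to the 2 genotypes alone. The Actb ratios of ERbetaKO-labelled and wild type arrays did not overlap, so that covariate could not be separated from genotype. Quantile normalization gave a smaller difference in ERalphaKO-labelled brains, -0.20, which still passed (adjusted p = 0.0079). A single probe set reads Psmb7.

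Psmb5, which carries the chymotrypsin-like site, had signals of 3595, 3617 and 3448 in ERalphaKO-labelled females and 3495, 3403 and 3718 in ERalphaKO-labelled males. The ERbetaKO-labelled signals were 3754, 3870 and 3996 in females and 3330, 3627 and 4097 in males, and the wild type signals 3831, 3918 and 4478 in females and 4022, 4159 and 4481 in males. The ERalphaKO-labelled values did not overlap with wild type, while the ERbetaKO-labelled values did. Psmb5 fell by 0.22 ± 0.062 (SE) in ERalphaKO-labelled brains (limma, adjusted p = 0.043), and its difference in ERbetaKO-labelled brains was -0.13 ± 0.062 (adjusted p = 0.19). The call was close to the threshold. It was lost on leaving out any of the 12 arrays of the comparison except the third ERalphaKO-labelled male (11 of 12, adjusted p at most 0.099), with differences of -0.24 to -0.19. It was also lost without the second or the third ERbetaKO-labelled female or the second ERbetaKO-labelled male, which share the fit. A single probe set reads Psmb5 as well.

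The bases before the start of Psmb5 are shown because it is the called catalytic gene with a RefSeq window in the table used. They lie on the minus strand of GRCm38.p6 at chr14:54617996-54618245, with a match to TGACNNNGC, the core of the antioxidant response element that Nfe2l1 and Nfe2l2 bind, in capitals.

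Psmb5: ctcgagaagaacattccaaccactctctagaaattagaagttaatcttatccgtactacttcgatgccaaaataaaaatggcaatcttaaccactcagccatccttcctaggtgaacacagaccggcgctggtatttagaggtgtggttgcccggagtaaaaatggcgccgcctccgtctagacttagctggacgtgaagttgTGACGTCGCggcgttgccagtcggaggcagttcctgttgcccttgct

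Psmb6, which carries the caspase-like site, did not pass. Its signals were 1925, 1744 and 2053 in ERalphaKO-labelled females and 2252, 2048 and 2156 in ERalphaKO-labelled males, 2110, 2013 and 2164 in ERbetaKO-labelled females and 1840, 1697 and 2419 in ERbetaKO-labelled males, and 2167, 2154 and 2247 in wild type females and 2171, 2287 and 2390 in wild type males. The ranges of the 3 genotypes overlapped. Its log2 difference was -0.14 ± 0.075 (SE) in ERalphaKO-labelled brains (limma, adjusted p = 0.28) and -0.14 ± 0.075 in ERbetaKO-labelled brains (adjusted p = 0.27). Of the 3 constitutive catalytic genes, then, 2 fell in ERalphaKO-labelled brains, with a median of -0.22, and 1 in ERbetaKO-labelled brains, with a median of -0.14. Beside these values, all 5 neuron markers were lower in ERalphaKO-labelled brains, with differences from -0.38 to -0.31 and a median of -0.34, and 1 of them passed. In ERbetaKO-labelled brains no neuron marker passed, with differences from -0.19 to 0.020 and a median of -0.061. The 5 endothelial markers had medians of -0.15 in ERalphaKO-labelled brains and -0.13 in ERbetaKO-labelled brains, with every marker lower in both. The part of neuron and endothelial content in the catalytic genes was not tested.

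The falls of Psmb7 and Psmb5 had the same direction on arrays with and without a high Pcp2 signal. Over the arrays above 500, Psmb7 differed by -0.34 between 4 ERalphaKO-labelled and 4 wild type arrays, and below 500 by -0.41 between 2 and 2. For Psmb5 the corresponding differences were -0.19 and -0.28, and for Psma1 0.36 and 0.22. In ERbetaKO-labelled against wild type brains, Psmb7 differed by -0.19 above 500 (3 against 4 arrays) and by -0.36 below 500 (3 against 2). On the arrays above 500 alone no member passed in either comparison with wild type, and 75 genes in all did in ERalphaKO-labelled against wild type brains (11 arrays in the fit). With the Actb ratio as a covariate, Psma1 and Psmb7 passed in ERalphaKO-labelled against wild type brains and Psmb5 did not.

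**Figure D3:**
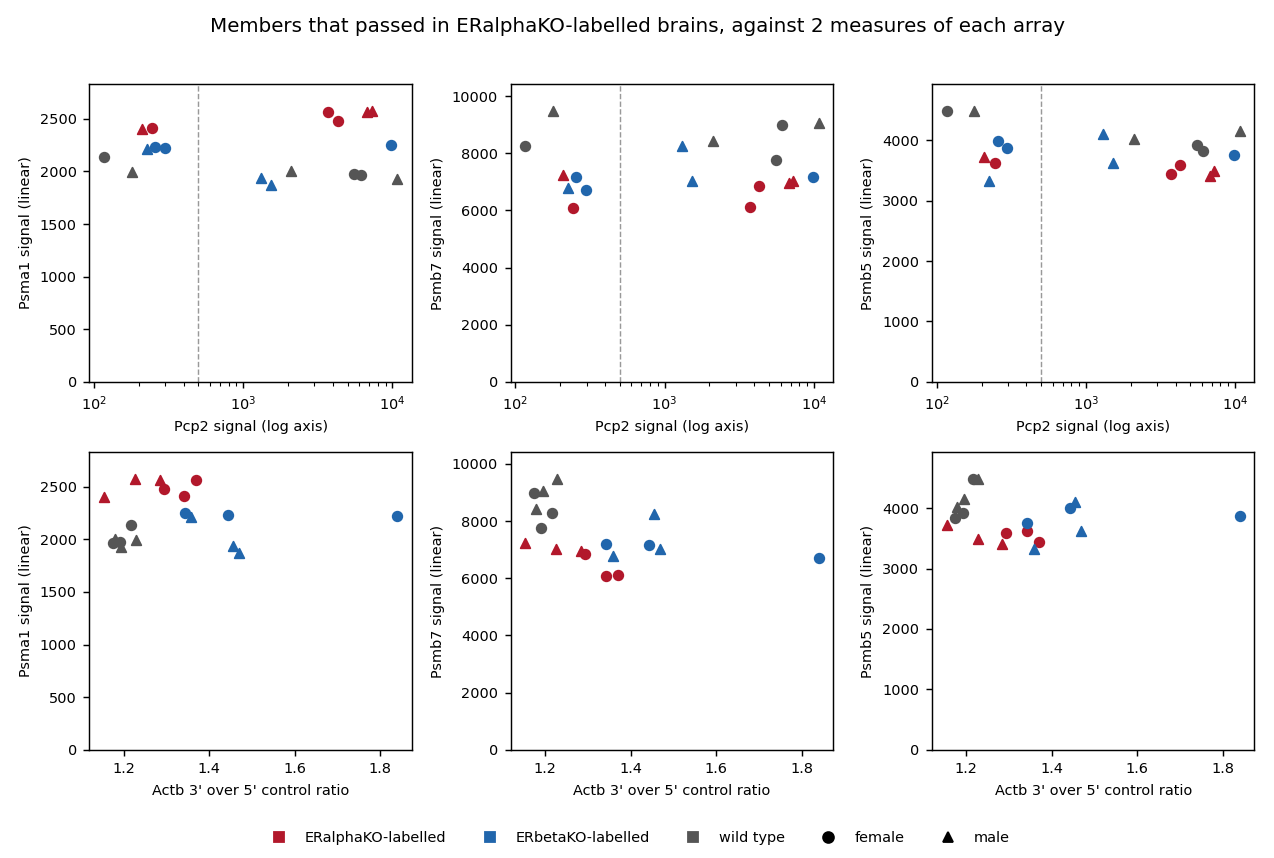
Signal (vertical axes, linear, from 0) of Psma1, Psmb7 and Psmb5 on each of the 18 arrays against the Pcp2 signal of the array (upper row, log axis, dashed line at 500) and against its 3′ to 5′ Actb control ratio (lower row), with colours for genotype, circles for females and triangles for males. On both sides of the dashed line, the ERalphaKO arrays lay above wild type for Psma1 and below it for Psmb7 and Psmb5, and the wild type arrays sit at the low end of the Actb ratio, from 1.17 to 1.23.

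The structural beta subunits, Psmb1, Psmb2, Psmb3 and Psmb4, had no call against wild type in either line. Their log2 differences ranged from -0.065 to 0.15 in ERalphaKO-labelled brains and from -0.16 to -0.0065 in ERbetaKO-labelled brains. Psmb4 was read differently by its 2 probe sets. The one used here, the brighter, had means of 3967 in ERalphaKO-labelled and 4150 in wild type brains and a difference of -0.065, while the other had means of 3359 and 2380 and a difference of 0.49 ± 0.086 (SE), with its 6 ERalphaKO-labelled values all above the wild type values. A fall or a rise of Psmb4 cannot be read from these arrays. In ERbetaKO-labelled brains the negative differences also rest on the brightest probe sets. The other probe sets of Psmb1 gave 0.19 and 0.52 (unadjusted p = 0.19 and 0.00062), and those of Psmb3 and Psmb4 gave 0.13 and 0.12.

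Among the immune forms of the catalytic subunits only Psmb10 was bright enough to test. Psmb10, which replaces Psmb7 under interferon, had signals of 668, 770 and 664 in ERalphaKO-labelled females and 710, 647 and 992 in ERalphaKO-labelled males. The ERbetaKO-labelled signals were 715, 1132 and 1068 in females and 875, 671 and 875 in males, and the wild type signals 841, 951 and 1178 in females and 1107, 754 and 996 in males. In ERalphaKO-labelled brains 4 of the 6 values lay below every wild type value, 1 lay just above the lowest wild type value and the third male lay within the range. The log2 difference of -0.36 ± 0.13 (SE) in ERalphaKO-labelled brains missed the threshold (limma, adjusted p = 0.11), as did -0.13 ± 0.13 in ERbetaKO-labelled brains (adjusted p = 0.59). Psmb8, the immune form of Psmb5, had signals of 25.3 to 104 in ERalphaKO-labelled, 19.5 to 98.2 in ERbetaKO-labelled and 49.1 to 131 in wild type brains. For Psmb9, the immune form of Psmb6, the ranges were 85.6 to 159, 81.9 to 135 and 32.0 to 180 in the same order, and for Psmb11, the catalytic subunit of the thymus, 15.5 to 84.2, 22.0 to 98.8 and 11.8 to 86.4. All 3 stayed below the limit for testing, and their ranges overlapped between genotypes.

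The 19S particle had no call against wild type in either line, among 6 ATPases, 3 further base subunits, 8 lid subunits and 3 assembly chaperones tested. In other settings Psmc6 passed in ERalphaKO-labelled brains with the mean of all probe sets, and Psmc4 without the first wild type female. Psmd8 passed in ERbetaKO-labelled brains with median centring. Another probe set had the opposite sign (unadjusted limma p under 0.05) for Psmd6 and Psmd11 in ERalphaKO-labelled and Psmc1, Psmd7 and Psmd11 in ERbetaKO-labelled brains. The median log2 difference in ERalphaKO-labelled and ERbetaKO-labelled brains was 0.049 and 0.021 for the ATPases, -0.074 and -0.086 for the base scaffolds and receptor (Psmd1, Psmd2 and Psmd4), 0.0061 and -0.054 for the lid, and 0.11 and 0.11 for the chaperones. Within the ATPase ring the 2 widest differences ran in opposite directions. Psmc4 had signals from 1562 to 2537 (median 1987) in ERalphaKO-labelled, from 1501 to 2326 (median 1679) in ERbetaKO-labelled and from 995 to 2127 (median 1599) in wild type brains. The log2 difference of Psmc4 was 0.35 ± 0.12 (SE) in ERalphaKO-labelled brains (limma, adjusted p = 0.10), and its other probe set gave 0.10 ± 0.054.

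Psmc5, a neighbouring ATPase, had signals from 3341 to 4862 (median 4055) in ERalphaKO-labelled, from 3462 to 4828 (median 4082) in ERbetaKO-labelled and from 4169 to 5760 (median 5003) in wild type brains. Its differences were -0.27 ± 0.10 (SE) in ERalphaKO-labelled brains (limma, adjusted p = 0.12) and -0.26 ± 0.10 in ERbetaKO-labelled brains (adjusted p = 0.13), and its 3 ranges overlapped. In the lid, Psmd8 had signals from 2196 to 2423 in ERalphaKO-labelled, from 1942 to 2248 in ERbetaKO-labelled and from 2161 to 2494 in wild type brains. Its difference between ERalphaKO-labelled and ERbetaKO-labelled brains was 0.16 ± 0.052 (adjusted p = 0.051), and between ERbetaKO-labelled and wild type brains -0.15 ± 0.052 (adjusted p = 0.088). Psmd7, a lid scaffold, differed by 0.20 ± 0.079 in ERalphaKO-labelled brains (adjusted p = 0.14) and 0.19 ± 0.079 in ERbetaKO-labelled brains (adjusted p = 0.15). Its 2 other probe sets had the same sign in ERalphaKO-labelled brains. In ERbetaKO-labelled brains 1 of them had the opposite sign at an unadjusted limma p under 0.05, so the Psmd7 difference there depended on the probe set.

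Neither subunit named here that handles ubiquitin passed. Psmd4, a ubiquitin receptor, averaged 2350 ± 201 in ERalphaKO-labelled, 2298 ± 227 in ERbetaKO-labelled and 2422 ± 107 in wild type brains (SD, n = 6 each). Its difference was -0.046 (95% interval -0.19 to 0.098) in ERalphaKO-labelled brains and -0.078 (-0.22 to 0.065) in ERbetaKO-labelled brains. These intervals hold for the brightest of its 3 probe sets, and 1 of the others had the opposite sign in each comparison with wild type. For each line, 1 of 32 refits turned the Psmd4 difference positive, to 0.16 and 0.085, above the upper bounds given. For Psmd14, the deubiquitinase of the lid, the means were 3882 ± 384, 3804 ± 260 and 3863 ± 230 in the same order. The Psmd14 differences were 0.0040 (-0.15 to 0.15) and -0.022 (-0.17 to 0.13), so changes beyond those bounds were outside the 95% intervals.

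**Figure D4:**
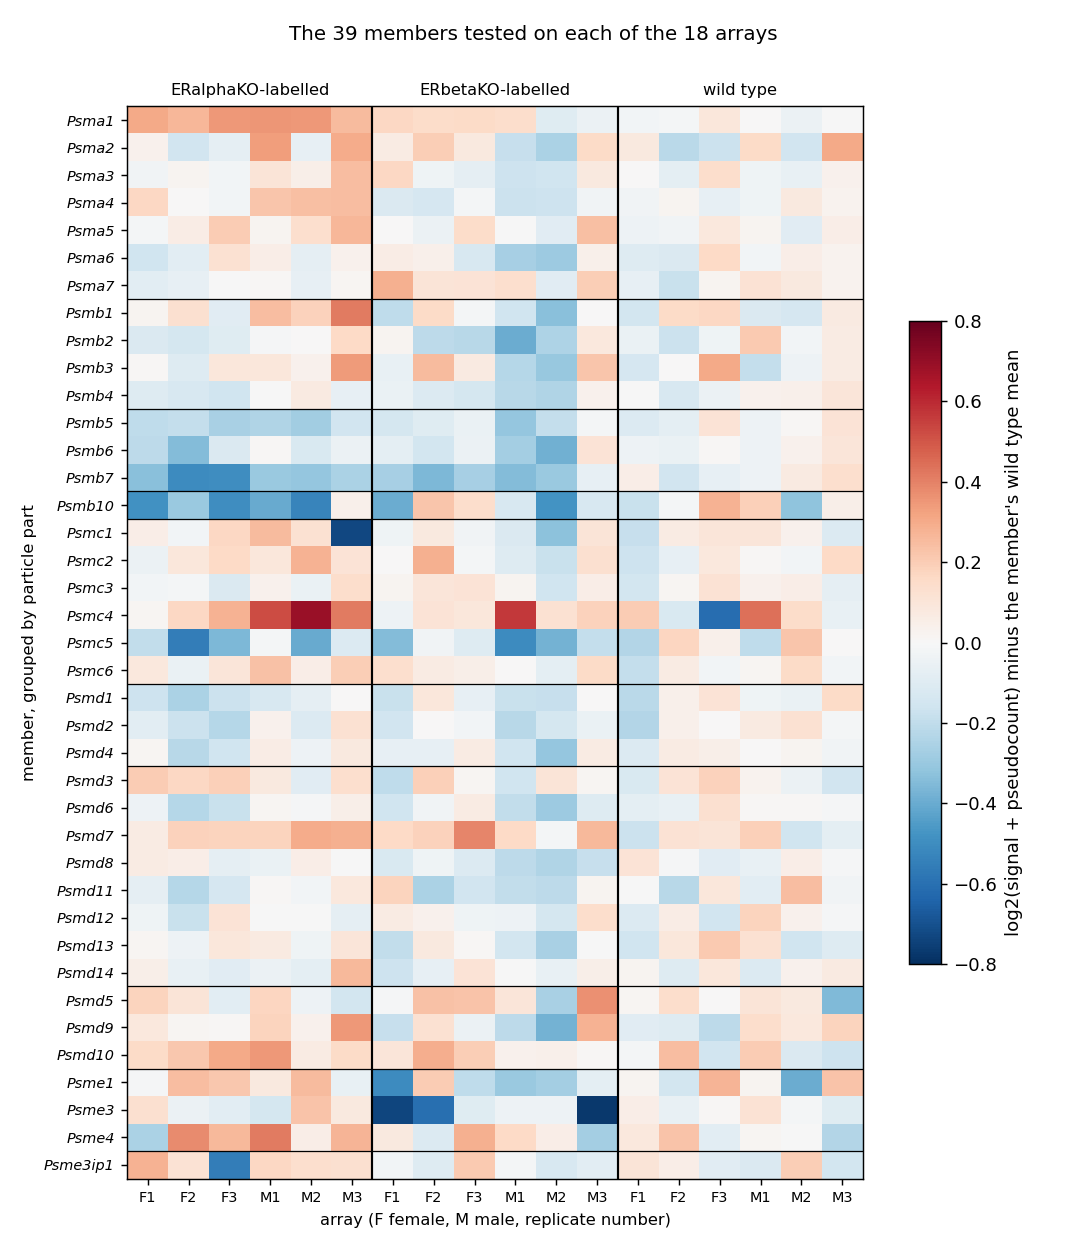
Heat map of log2(signal + pseudocount) minus the wild type mean of the same gene, for the 39 members (rows, grouped by particle part) on the 18 arrays (columns, by genotype, sex and replicate number), with red for higher and blue for lower values. The Psma1 row is red and the Psmb7 and Psmb5 rows blue on all 6 ERalphaKO arrays, and the second ERbetaKO male has the lowest column median, -0.19.

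Of the 3 caps tested that can replace the 19S particle, 1, Psme3, passed between the knockout lines, and its probe sets disagreed in direction. The median log2 difference over the 3 was 0.31 between ERalphaKO-labelled and ERbetaKO-labelled brains. Psme3, the nuclear cap PA28 gamma, had signals of 995, 877 and 853 in ERalphaKO-labelled females and 818, 1074 and 962 in ERalphaKO-labelled males. The ERbetaKO-labelled signals were 519, 575 and 844 in females and 882, 881 and 504 in males, and the wild type signals 943, 867 and 913 in females and 989, 895 and 844 in males. The ERbetaKO-labelled brains thus fell into 3 low values, the first 2 females and the third male, and 3 values that overlapped with the other genotypes. Psme3 was 0.41 ± 0.13 (SE) higher in ERalphaKO-labelled than in ERbetaKO-labelled brains (limma, adjusted p = 0.043), and its difference in ERbetaKO-labelled against wild type brains was -0.38 ± 0.13 (adjusted p = 0.079). The call between the lines was lost in 5 of 14 other settings, with the mean of its probe sets (0.086, adjusted p = 0.47), with the Actb ratio as a covariate (adjusted p = 0.26), with quantile normalization, without a filter and in a fit to both lines alone. It was also lost on leaving out 8 of the 12 arrays in turn (adjusted p at most 0.10). It was kept without the first ERalphaKO-labelled male and without the 3 ERbetaKO-labelled arrays of high Psme3 signal. A second Psme3 probe set had a difference of -0.25 (unadjusted p = 0.0023) in ERbetaKO-labelled against wild type brains and the dimmest one 0.35 (unadjusted p = 0.045).

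The bases before the start of Psme3 are shown because it is the called cap gene. They lie on the plus strand of GRCm38.p6 at chr11:101315963-101316212, with a CCAAT box, read on the other strand, in capitals.

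Psme3: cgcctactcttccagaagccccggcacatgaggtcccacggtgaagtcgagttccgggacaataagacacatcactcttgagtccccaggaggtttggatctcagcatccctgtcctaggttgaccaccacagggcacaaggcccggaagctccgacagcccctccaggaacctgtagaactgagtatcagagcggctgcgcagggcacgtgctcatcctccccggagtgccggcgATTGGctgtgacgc

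Psme1, a subunit of the interferon-induced cap PA28, had signals of 1138, 1374 and 1341 in ERalphaKO-labelled females and 1216, 1381 and 1096 in ERalphaKO-labelled males. The ERbetaKO-labelled signals were 791, 1329 and 988 in females and 922, 937 and 1081 in males, and the wild type signals 1163, 1031 and 1399 in females and 1166, 854 and 1357 in males. All but 1 ERbetaKO-labelled value lay below all ERalphaKO-labelled values, and the difference of 0.31 ± 0.12 (SE) between them did not pass (limma, adjusted p = 0.094). It passed in 5 of 14 other settings, with median centring, with array weights, with the cerebellar score, on the arrays with Pcp2 over 500 and with the Actb ratio, where it reached 0.65 (adjusted p = 0.017) and Psme1 was the only member called. Its partner Psme2 is read only by a probe set that also names Psme2b and is not among the members. That probe set averaged 757 ± 118 in ERalphaKO-labelled, 703 ± 77.1 in ERbetaKO-labelled and 662 ± 145 in wild type brains (SD, n = 6 each).

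Psme4, the cap PA200, ranged from 850 to 1386 (median 1246) in ERalphaKO-labelled, from 840 to 1265 (median 1077) in ERbetaKO-labelled and from 862 to 1210 (median 1030) in wild type brains. The brightest of its 6 probe sets differed by 0.19 ± 0.12 (SE) in ERalphaKO-labelled brains (limma, adjusted p = 0.35) and 0.034 ± 0.12 in ERbetaKO-labelled brains (adjusted p = 0.88). Probe sets 2 and 3 in order of signal differed by more, by 0.59 and 0.41 in ERalphaKO-labelled brains and by 0.55 and 0.31 in ERbetaKO-labelled brains. On the second probe set the mean was 1034 in ERalphaKO-labelled, 1000 in ERbetaKO-labelled and 673 in wild type brains, and all values of both knockout lines lay above all wild type values (unadjusted p = 5.8e-05 in ERalphaKO-labelled brains and 0.00012 in ERbetaKO-labelled brains). The answer for Psme4 therefore depended on the probe set.

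**Figure D5:**
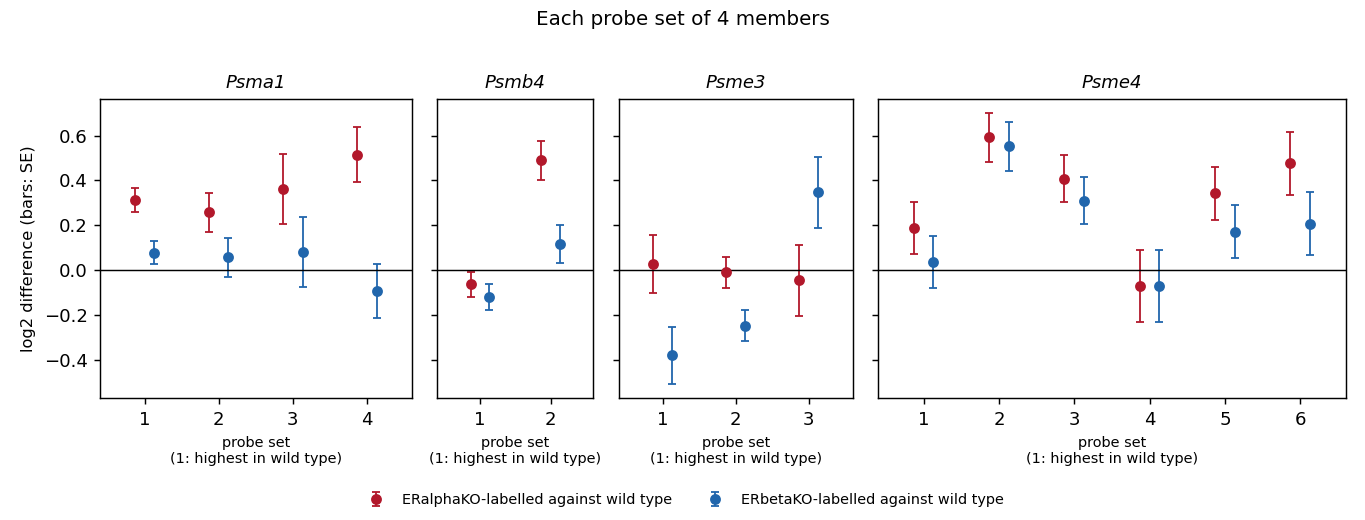
Log2 difference (vertical axis, bars are standard errors) of every probe set of Psma1, Psmb4, Psme3 and Psme4, numbered from the brightest in wild type, in ERalphaKO against wild type (red) and ERbetaKO against wild type (blue). The 4 Psma1 probe sets lie above 0 in red, the 2 of Psmb4 differ in red (-0.065 and 0.49), the 3 of Psme3 differ in sign in blue, and the second Psme4 probe set is at 0.59 and 0.55.

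The sexes did not differ by any call. Over the 3 genotypes 0 of 39 members passed for female against male brains, where 0.0306% of all genes did. At an unadjusted limma p under 0.05 there was 1, or 2.56% against 4.57% of all genes. It was Psmc4, which was 0.33 ± 0.10 (SE) lower in females (adjusted p = 0.97). No member passed for a genotype difference that depended on sex, and 0.0% of all genes did. For ERalphaKO-labelled brains 1 member, Psmb1, had an unadjusted p under 0.05, with a difference 0.38 lower in females than in males (adjusted p = 0.94), where 5.15% of all genes had such a p. For ERbetaKO-labelled brains there was none, against 3.38% of all genes. No gene of the 13072 passed either of these interactions.

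Within a genotype and sex, proteasome genes varied together more than genes at large. After the mean of each of the 6 groups was taken off, the median Pearson correlation between pairs of genes over the 18 arrays was 0.20 for the 39 members, 0.39 for the 15 members of the 20S core, 0.26 for the 20 members of the 19S particle and -0.11 for the 3 caps, against 0.0037 for all pairs of genes tested. Pairs of a 20S and a 19S member had a median of 0.23. These correlations describe the same 18 arrays, share their scaling, tissue content and RNA quality, and carry no p-value. The members were also among the brighter genes, and no set of genes of like signal was compared. Psmb3 followed the other members most closely, with a median correlation of 0.44, followed by the chaperone Psmd9 at 0.44 and Psmb5 at 0.42. Psme3, Psme4 and Psmc4 ran against the rest, at -0.29, -0.23 and -0.21.

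The median member deviation of an array from the wild type means ran from -0.070 to 0.11 in ERalphaKO-labelled, from -0.19 to 0.043 in ERbetaKO-labelled and from -0.063 to 0.049 in wild type brains. The lowest ERbetaKO-labelled medians, -0.16 and -0.19, were those of the first and second males. The spread of a member within a group had a median SD of 0.13 on the log2 scale, against 0.18 over all genes, which were not matched to the members for signal. It ran from 0.064 for Psmd8 and 0.065 for Psma1 up to 0.25 for Psmb10.

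Genes that assemble, serve or control the proteasome were read by list, where 6.7%, 7.5% and 15.4% of all genes were called in the comparisons of ERalphaKO-labelled with wild type, ERbetaKO-labelled with wild type and ERalphaKO-labelled with ERbetaKO-labelled brains. The median log2 difference in ERalphaKO-labelled against wild type brains was 0.077 for the assembly factors, -0.044 for the receptors and shuttles, -0.11 for the transcription factors, -0.012 for the interferon genes and -0.057 for the ubiquitin genes, and in ERbetaKO-labelled brains -0.050, 0.025, -0.16, -0.0071 and -0.012. Of 7 assembly factors outside the symbol rule, none passed against wild type, and Psmg4, part of a chaperone pair for the alpha ring, was 0.32 ± 0.10 (SE) higher in ERalphaKO-labelled than in ERbetaKO-labelled brains (limma, adjusted p = 0.044). The means of Psmg4 were 454 ± 53.4 in ERalphaKO-labelled, 354 ± 57.0 in ERbetaKO-labelled and 360 ± 21.2 in wild type brains (SD, n = 6 each). Of 11 receptors, deubiquitinases and shuttles, none passed against wild type. Between the lines Usp14, a deubiquitinase bound to the 19S base, and Ube3c, a ubiquitin ligase bound to the particle, were 0.30 and 0.21 lower in ERalphaKO-labelled than in ERbetaKO-labelled brains (adjusted p = 0.046 and 0.016). Of 4 ubiquitin-related genes tested, Vcp, the segregase that hands substrates to the proteasome, fell by 0.22 ± 0.061 in ERbetaKO-labelled brains (adjusted p = 0.038), with -0.17 in ERalphaKO-labelled brains (adjusted p = 0.099).

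Of 8 transcription factors known to act on proteasome genes, 1 fell in ERalphaKO-labelled brains and 2 in ERbetaKO-labelled brains. Foxo4 averaged 158 ± 58.4 in ERalphaKO-labelled, 66.0 ± 30.6 in ERbetaKO-labelled and 296 ± 52.7 in wild type brains (SD, n = 6 each). It fell by 0.73 ± 0.19 (SE) in ERalphaKO-labelled brains (limma, adjusted p = 0.034) and fell by 1.49 ± 0.19 in ERbetaKO-labelled brains (adjusted p = 0.00071). Stat3 fell by 0.37 ± 0.11 in ERbetaKO-labelled brains (adjusted p = 0.046). Nfe2l1, the activator of subunit genes when the proteasome is short, differed by -0.17 ± 0.081 in ERalphaKO-labelled brains (adjusted p = 0.23) and -0.23 ± 0.081 in ERbetaKO-labelled brains (adjusted p = 0.094). Of 15 interferon and antigen presentation genes, none passed against wild type. Tap1, a peptide transporter, and Irf8, an interferon regulatory factor, were 0.56 and 0.30 lower in ERalphaKO-labelled than in ERbetaKO-labelled brains (adjusted p = 0.023 and 0.033).

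Motifs of these factors were counted in RefSeq windows of GRCm38.p6 from 250 bases before to 50 after a gene start, on both strands. Of the 44 members, 37 matched the table, with 40 windows, and all genes had 32851. The antioxidant response core TGACNNNGC was in 15.0% of member windows, Psmb5 and Psmb6 among them, and in 12.4% of all windows. CCAAT was in 16 of the 40 member windows and in 37.4% of all windows. The core of the interferon-stimulated response element, GAAA and GAAA with any 2 bases between, was in 4 of the 40 member windows, those of Psmb3, Psmd4, Psmd9 and Psme1, and in 3.44% of all windows. The estrogen response element, GGTCA and TGACC with any 3 bases between, was in no member window and in 23 of all windows. CCAAT can overlap with the other motifs. A match is a run of letters, and these counts say nothing of binding.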

How the data were processed

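Whole-brain RNA of 18 mouse samples was measured on Affymetrix arrays. The authors deposited linear intensities per probe set, made with MAS5, per the submitters' processing notes, and the 2% trimmed mean of every column is 500. The table holds no detection calls and no second scale, and the number of arrays limits the precision. Of 45037 non-control probe sets, 34945 had 1 gene symbol, updated through the RefSeq table of GRCm38.p6, 932 had several and 9160 none.

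A pseudocount of 63.6, the 25th percentile, was added to the signal before log2 was taken, so differences of dim genes are understated. The brightest probe set of each of 18193 genes was kept, and 13072 at or above the 40th percentile (log2 7.58) were fitted with limma 3.58.1 (R 4.3.3), 6 group means over all 18 arrays, an intensity trend and Benjamini-Hochberg adjustment over all genes tested at 0.05. Each genotype comparison averaged the female and the male difference. Probe sets and members below the limit were fitted without it, with unadjusted p. On simulated data for the 13072 genes with 200 changed, the fit of ERalphaKO against wild type recovered 35.8%, 74.9% and 93.9% of genes changed 1.3-, 1.5- and 2-fold, with 4.22% of calls false, and that of ERbetaKO against wild type 37.9%, 71.9% and 92.4%, with 4.94% false. Whether these percentages hold for the arrays themselves, which varied in tissue content and RNA quality, was not tested.

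The members, particle parts and companion lists were chosen with earlier results of these data known. Named members were those past the threshold in a genotype comparison (at least the 4 smallest p), the catalytic and immune subunits, the caps, Psmd4, Psmd14, Psma8 and Psmb11, the members with the smallest p for sex, and up to 4 genes per companion list. Psmd7 and the members with contrasting probe sets or correlations were added after their values were seen. Alternatives were other pseudocounts, scalings, filters and probe set rules, array weights, no intensity trend, a fit to the compared groups alone, a replicate block, a cerebellar score, Pcp2-rich arrays, the Actb ratio and each array left out. Figures were drawn with matplotlib 3.10.9.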

Additional observations from a re-analysis of the deposited data

Results flagged for a closer look

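In each genotype's 6 arrays, 54 sets of values were examined for a sample far from the others (by Dixon's test), and 2 were found, where chance gives about 5% of such sets. For Psmb7, the third ERbetaKO-labelled male had a signal of 8258, against 6707 to 7181 on the other 5 ERbetaKO-labelled arrays, so 1 array stood nearer to wild type than the rest. For Psmc4, the first ERbetaKO-labelled male had 2326, against 1501 to 1769 on the other 5.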

How the results depend on the processing

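No called result changed sign under the alternatives. The 7 called results were recomputed 224 times, of which 44 lost the call, and 27 uncalled results 864 times, of which 23 gained a call and 37 changed sign. Psma1 and Psmb7 in ERalphaKO-labelled against wild type brains were lost only on the 11 arrays with Pcp2 over 500 (adjusted p = 0.052 and 0.10), an alternative with fewer arrays, while Psmb5 was lost in 6 of 14 settings. Members called in ERalphaKO-labelled against wild type brains numbered 6 with the mean of all probe sets, 5 with array weights, 0 over Pcp2-rich arrays and 2 to 3 without single arrays. In ERbetaKO-labelled against wild type brains there were 3 with median centring, 2 with array weights, 0 with only the groups compared, with Pcp2-rich arrays or with the Actb ratio, and 0 to 2 without single arrays. Between the knockout lines there were 6 with median centring, 5 with the mean of all probe sets, 7 with array weights, 5 with the cerebellar score, 1 with the Actb ratio and 2 to 5 without single arrays. The cause was not tested. Sex and interactions gave 0 throughout. The members' median in ERbetaKO-labelled against wild type brains was -0.17 with median centring, 0.0054 with the mean of all probe sets and -0.12 to -0.035 without single arrays, and that between the lines 0.15 with median centring and 0.033 to 0.089 without single arrays. In ERalphaKO-labelled brains it was -0.0036 to 0.034 without single arrays. Median centring shifted the all-gene median in ERbetaKO-labelled brains by -0.10 and gave 145 higher and 1491 lower genes, against 381 and 599, and 1639 and 579 between the lines, against 819 and 1191. Of 18 same-numbered pairs of arrays, 6 correlated above 0.1 (-0.40 to 0.43). Differently numbered pairs were not compared, so whether the replicate numbers pair the samples cannot be said. With a replicate block 4, 1 and 4 members were called in the 3 comparisons, Psmb10 being added in the first and Psmb1 in the last. The 2 other Psmb1 probe sets had the opposite sign between the lines (unadjusted limma p under 0.05), so that call depended on the probe set. All genes called in ERalphaKO-labelled against wild type brains, 876 as reported, numbered 75 over Pcp2-rich arrays, 423 with the Actb ratio, 548 with median centring, 1492 with the cerebellar score, 1559 with array weights and 396 to 1082 without single arrays. In ERbetaKO-labelled against wild type brains, 980 as reported, they numbered 122 with the Actb ratio, 235 over Pcp2-rich arrays, 1547 with array weights, 1636 with median centring and 500 to 1068 without single arrays, and between the lines, 2010 as reported, 756 with the Actb ratio, 3827 with array weights and 1183 to 2248 without single arrays. With the mean of all probe sets, 644, 806 and 1564 of 12056 genes were called in the 3 comparisons. With a replicate block the counts were 790, 786 and 1877 of 13072 genes. The cerebellar score gave 2433 between the lines, and a fit to ERbetaKO-labelled and wild type brains alone gave 701. No depth applies to arrays, and members under the limit for testing had signals near the pseudocount, where differences are compressed.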
